A study of Mus musculus with 8 samples.

Results

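The genes described here are 41 mouse genes of antigen presentation, interferon signalling and NF-kB signalling, chosen by name, of which 37 were listed in the gene tables among 13769 genes in all. They were measured by RNA sequencing in the arcuate nucleus, the hypothalamic region that holds the POMC and AgRP neurons controlling feeding. Each of the 4 groups had 2 libraries, and each library pooled tissue from 2 C57BL/6 mice aged 4 months. Knockout males carried Pomc-Cre with both copies of miR-17-92 floxed, so that the microRNA cluster is deleted in cells that have expressed Cre from the Pomc promoter. Sponge females carried Pomc-Cre;miR-7-sponge, where the sponge is an RNA with binding sites that soak up miR-7. Wild type females were littermates of the sponge females, and wild type males were littermates of the knockout males. None of these groups carried Pomc-Cre alone. The tissue was cut out whole and holds many cell types beside the Pomc-Cre cells, so fewer cells of a type cannot be told apart from less RNA per cell.

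Class I antigen presentation places peptides, moved into the endoplasmic reticulum by the TAP transporter, on a heavy chain held by beta-2 microglobulin. Type I and type II interferons act through separate receptors and the STAT and IRF transcription factors to switch on antiviral genes. NF-kB dimers are held in the cytoplasm by inhibitor proteins until an IKK kinase releases them, and NF-kB in turn induces its own inhibitors. In the hypothalamus these pathways are known mainly from microglia, blood vessels and the response of neurons and glia to high-fat feeding or infection.

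The genes were weakly to moderately expressed. Their median level was 2.56 FPKM (fragments scaled to transcript length and library size, mean of 8 libraries), against 4.94 FPKM for the 13130 genes with values in all libraries. Of the 37 genes, 8 had a mean under 1 FPKM, 18 had 1 to 5 FPKM, 8 had 5 to 10 FPKM and 3 had 10 FPKM or more. The 3 highest were B2m (36.0 FPKM), H2-D1 (15.3 FPKM) and Il6st (14.3 FPKM). Irf7, Dhx58, Tlr4 and Tnfaip3 had no row in the gene tables. The transcript tables listed 1 Irf7 transcript (Irf7-003) and 1 Dhx58 transcript (Dhx58-001) in the knockout comparison, and 1 Tlr4 transcript (Tlr4-001) in the sponge and sex comparisons, each under 1 FPKM in every library.

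**Figure D1:**
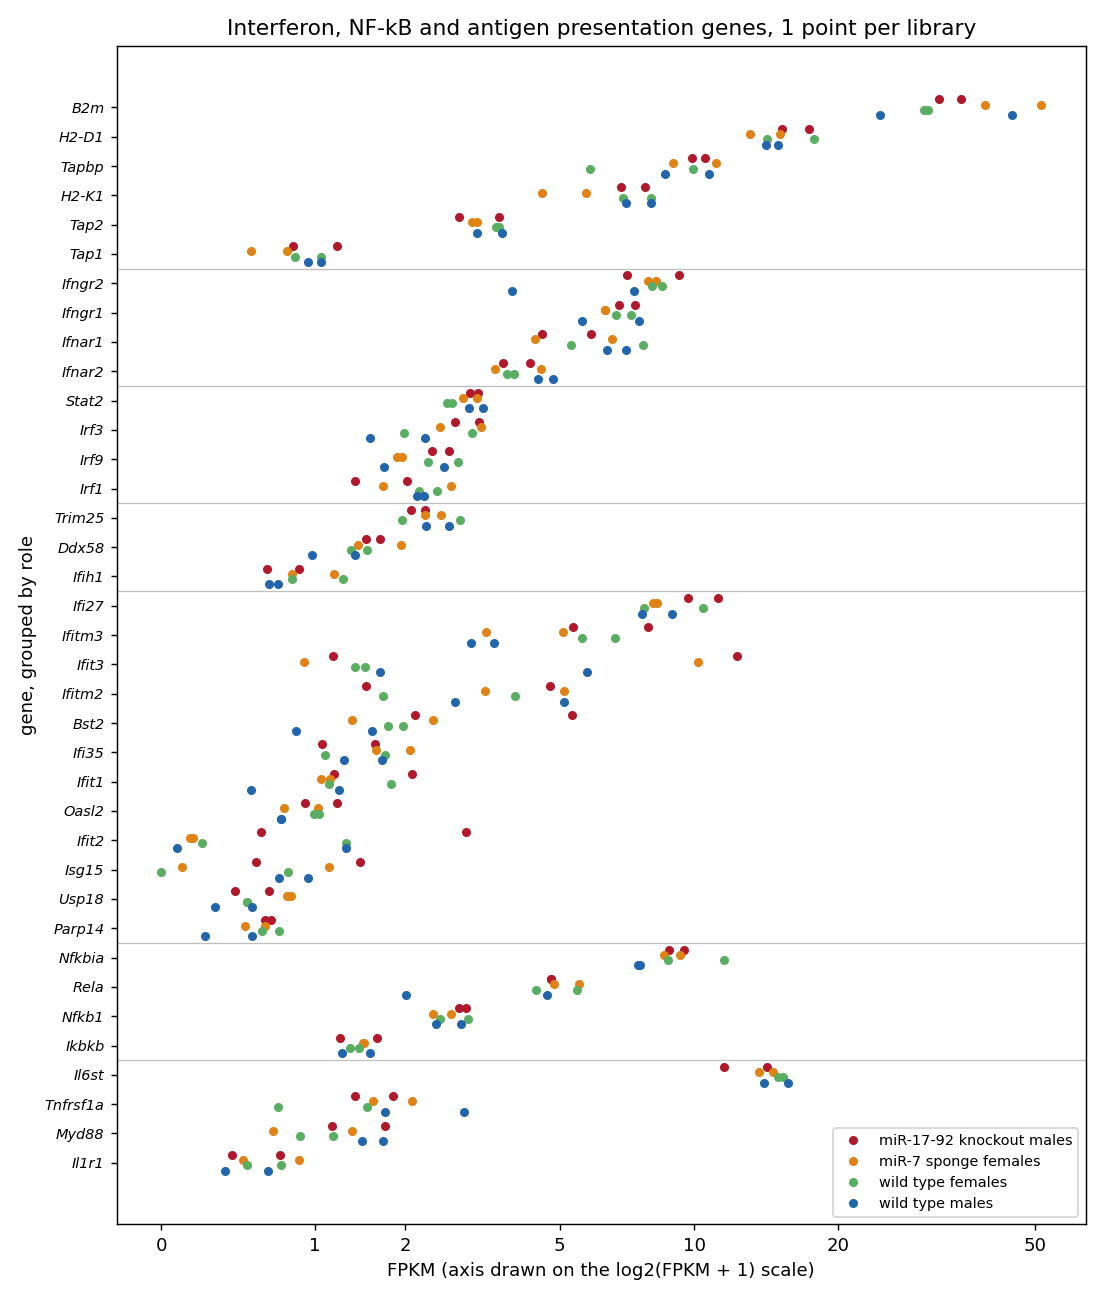
FPKM of the 37 genes in each library (1 point per library, coloured by group), on an axis scaled as log2(FPKM + 1), with genes ordered by role and level. B2m lies far to the right of the other genes, and the points of Ifit3 spread from 0.898 to 12.3 FPKM.

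No gene of the set passed the test in any comparison. limma was fitted to log2(FPKM + 1) over all genes with a mean of at least 0.5 FPKM, and a gene was called at an adjusted p under 0.05 (Benjamini-Hochberg over all genes). That minimum left out Usp18 and Parp14 in the knockout comparison, Ifit2 and Isg15 in the sponge comparison and Parp14 in the sex comparison, whose table also had no row for Usp18. In knockout males against wild type males, 0 of the 35 tested genes were called, and the background was 0.0608% of all genes. In sponge females against wild type females, 0 of 35 were called, with a background of 0.106%. In wild type females against wild type males, 0 of 35 were called, with a background of 0.0686%. At an unadjusted p under 0.05, 1 of 35 genes stood out in each comparison: Ifitm3 in knockout males, B2m in sponge females and Ifitm3 in the sex comparison. The background at that threshold was 5.33% of all genes in the knockout comparison, 3.76% in the sponge comparison and 4.61% in the sex comparison, so these counts were near what all genes gave. The wild type males serve in both the knockout and the sex comparison, and the wild type females in both the sponge and the sex comparison.

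The median log2 fold change of the tested genes was 0.08 in knockout males, against 0.03 for all genes. It was -0.03 in sponge females, the same as for all genes to 2 decimals, and 0.05 in the sex comparison, against 0.06 for all genes. In knockout males, 9 genes had both libraries above both wild type libraries and 4 had both below, where 22.5% of all genes lay above and 16.0% below. In sponge females, 5 genes lay above and 7 below, where 12.1% of all genes lay above and 18.8% below. In the sex comparison, 6 genes lay above and 5 below, where 24.1% of all genes lay above and 10.9% below.

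**Figure D2:**
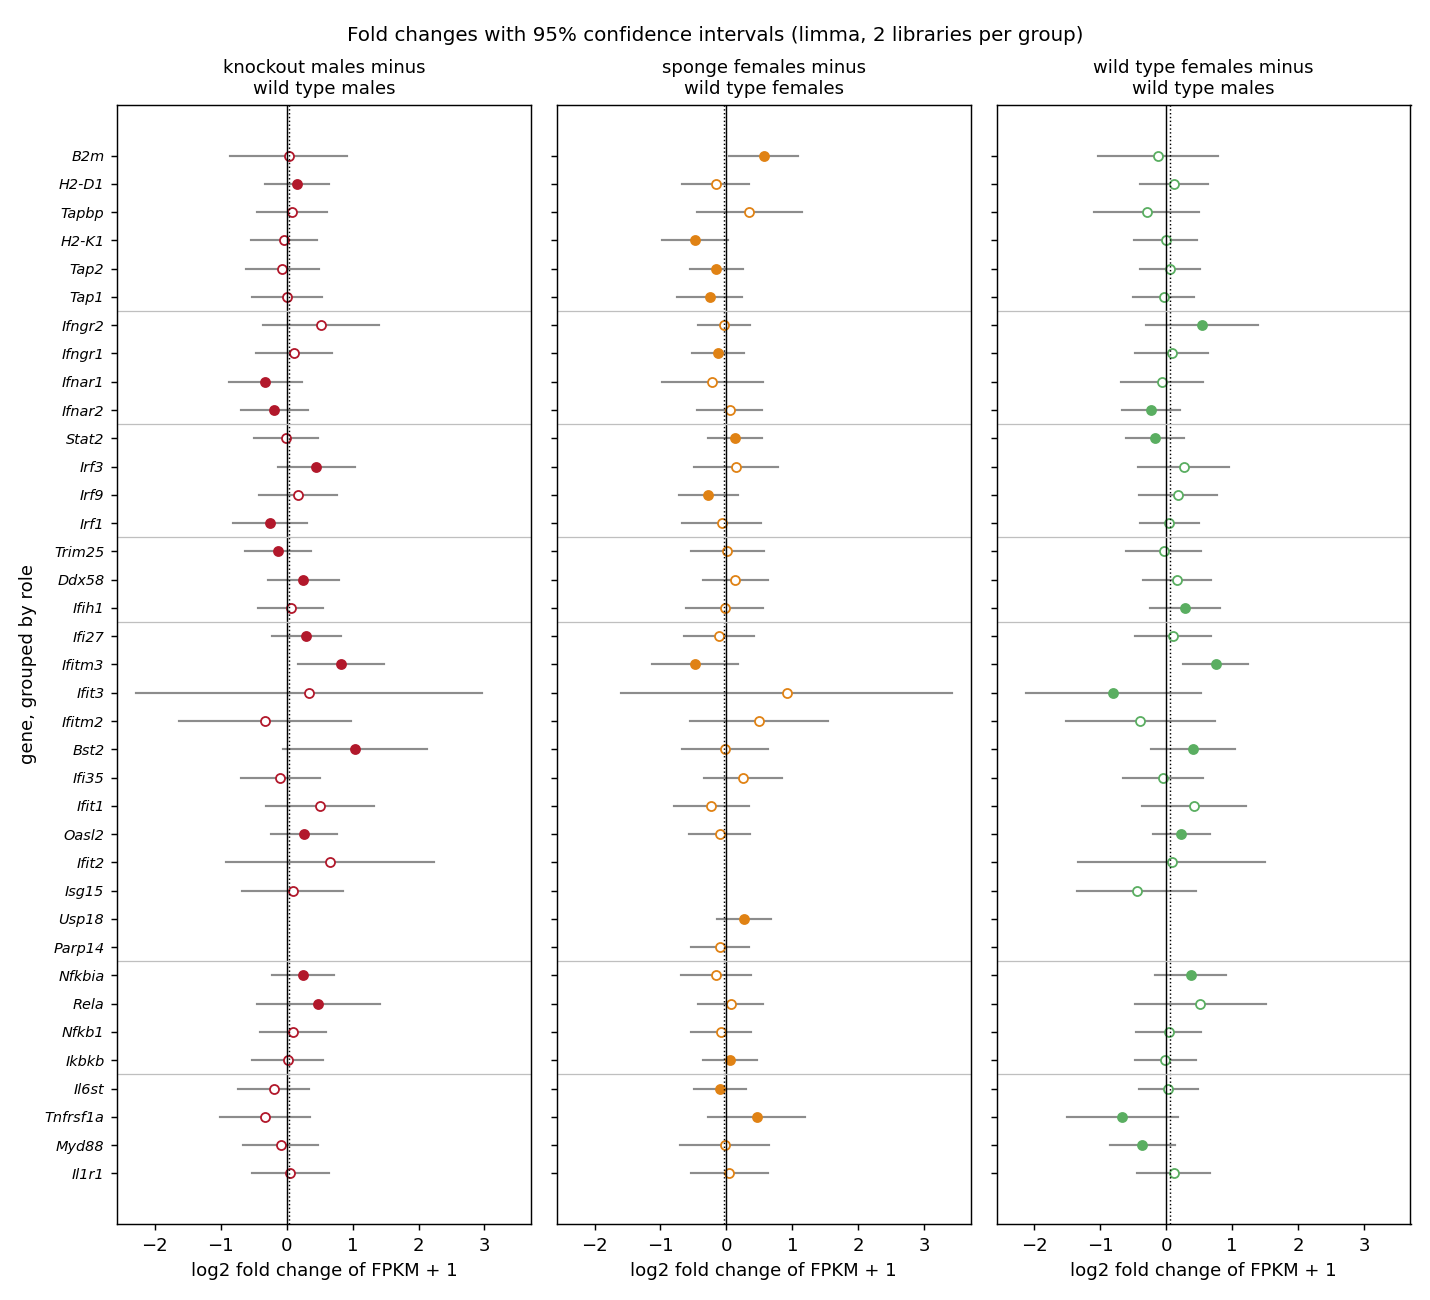
log2 fold changes with 95% confidence intervals from limma for the genes tested in each comparison, grouped by role. Filled points mark genes whose 2 pairs of libraries did not overlap, and the dotted line is the median of all genes. Ifitm3 in knockout males (0.83), B2m in sponge females (0.57) and Ifitm3 in the sex comparison (0.75) have intervals that leave out 0, and Ifit3 has the widest interval in the knockout and sponge comparisons.

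Antigen presentation genes had close levels in the knockout comparison and differences of both signs in the sponge comparison, without passing the test. B2m encodes beta-2 microglobulin, the light chain shared by all class I molecules, and lies on chromosome 2 at 122147686 to 122153083 (mm10, plus strand). It had 35.5 and 32.1 FPKM in knockout males, 39.7 and 51.4 FPKM in sponge females, 29.9 and 30.4 FPKM in wild type females, and 44.8 and 24.4 FPKM in wild type males. Both sponge libraries were above both wild type female libraries, and the sponge difference was 0.57 ± 0.19 (log2, SE, n = 2 each; limma unadjusted p = 0.0389, adjusted p = 0.9999). The wild type males span a range that holds the knockout values and one of the sponge values.

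H2-K1, a class I heavy chain, had 6.92 and 7.80 FPKM in knockout males, 5.74 and 4.55 FPKM in sponge females, 7.00 and 8.07 FPKM in wild type females, and 8.06 and 7.10 FPKM in wild type males. The sponge libraries were the lowest 2 of the 8, and the sponge difference was -0.48 ± 0.18 (log2, SE; limma unadjusted p = 0.0585). H2-D1, the other classical heavy chain measured, averaged 16.4 ± 1.5 FPKM in knockout males, 14.1 ± 1.5 FPKM in sponge females, 16.0 ± 2.5 FPKM in wild type females and 14.6 ± 0.6 FPKM in wild type males (SD, n = 2 each). Reads from class I heavy chains can be shared between near-identical copies, so the split between H2-K1, H2-D1 and other H2 genes is uncertain.

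Tap1 and Tap2, the paired subunits of the peptide transporter, were lower in both sponge libraries than in both wild type female libraries without passing the test. Tap1 had 0.495 and 0.760 FPKM in sponge females, against 1.05 and 0.828 FPKM in wild type females (-0.26 ± 0.18, log2, SE). Tap2 had 3.04 and 3.13 FPKM in sponge females, against 3.56 and 3.52 FPKM in wild type females (-0.15 ± 0.15). Tapbp, which links the heavy chain to the transporter, had 11.1 and 9.01 FPKM in sponge females, against 5.88 and 9.92 FPKM in wild type females, and these groups overlap. The sponge difference was negative for 4 of the 6 antigen presentation genes and positive for 2, B2m and Tapbp, where 44.0% of all genes were positive.

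No interferon receptor gene passed the test. Ifnar1 and Ifnar2, the chains of the type I interferon receptor, lay lower in both knockout libraries than in both wild type male libraries. Ifnar1 had 4.54 and 5.93 FPKM in knockout males, against 6.41 and 7.11 FPKM in wild type males (-0.32 ± 0.21, log2, SE; limma unadjusted p = 0.192). Ifnar2 had 4.26 and 3.65 FPKM in knockout males, against 4.45 and 4.82 FPKM in wild type males (-0.19 ± 0.19). Ifngr2, a chain of the type II receptor, was the most variable of the 4, with 9.25 and 7.14 FPKM in knockout males, 8.24 and 7.94 FPKM in sponge females, 8.51 and 8.09 FPKM in wild type females, and 7.39 and 3.85 FPKM in wild type males. Wild type male replicate 2 was the lowest library for Ifngr2. Ifngr1, the ligand-binding chain, ranged from 5.65 to 7.59 FPKM over the 8 libraries. Ifnar2, Ifnar1 and Ifngr2 lie within one stretch of chromosome 16, between 91372783 and 91565169.

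No transcription factor gene of the pathway passed the test. Stat2, which joins Irf9 in the complex that binds interferon-stimulated promoters, had the smallest spread between libraries of a group among the 37 genes, a within-group SD of 0.05 on the log2(FPKM + 1) scale. It had 3.16 and 3.004 FPKM in knockout males, 2.89 and 3.14 FPKM in sponge females, 2.70 and 2.62 FPKM in wild type females, and 2.99 and 3.25 FPKM in wild type males. Irf3, which acts below the RNA sensors, had 3.17 and 2.75 FPKM in knockout males, against 2.27 and 1.56 FPKM in wild type males (0.45 ± 0.22, log2, SE, with a 95% confidence interval of -0.14 to 1.04; limma unadjusted p = 0.103). Irf9 had 1.96 and 1.89 FPKM in sponge females, against 2.79 and 2.31 FPKM in wild type females (-0.28 ± 0.16). Irf1, itself an interferon-induced factor, had 2.02 and 1.39 FPKM in knockout males, against 2.16 and 2.26 FPKM in wild type males (-0.26 ± 0.21).

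RNA sensors showed no difference past the test either. Ddx58, which encodes the sensor RIG-I, had 1.51 and 1.67 FPKM in knockout males, against 0.971 and 1.39 FPKM in wild type males (0.26 ± 0.20, log2, SE). Ifih1, which encodes the sensor MDA5, had 0.802 and 1.26 FPKM in wild type females, against 0.626 and 0.693 FPKM in wild type males (0.28 ± 0.20). Trim25, a ubiquitin ligase that acts on RIG-I, ranged from 1.96 to 2.84 FPKM over the 8 libraries.

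Interferon-stimulated effectors held the widest differences of the set. Their summed level was 51.0 and 26.2 FPKM in knockout males, 36.1 and 23.8 FPKM in sponge females, 26.1 and 28.9 FPKM in wild type females, and 25.6 and 25.9 FPKM in wild type males. Replicate 1 of the knockout males and replicate 1 of the sponge females were the highest 2 libraries in this sum. Without Ifit3 the sum was 38.7 and 25.1 FPKM in knockout males, 25.9 and 22.9 FPKM in sponge females, 24.6 and 27.5 FPKM in wild type females, and 19.8 and 24.2 FPKM in wild type males. Sponge replicate 1 was then below wild type female replicate 4, so its rank rests on Ifit3, while knockout replicate 1 was still the highest. In knockout males 8 of the 10 tested effectors had a positive log2 fold change, with a median of 0.32, where 53.9% of all genes were positive with a median of 0.03. In sponge females 4 of 10 were positive, with a median of -0.06, where 44.0% of all genes were positive with a median of -0.03.

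Ifitm3, a membrane protein that blocks the entry of enveloped viruses, lies on chromosome 7 at 141009586 to 141010770 (mm10, minus strand). It had 7.95 and 5.38 FPKM in knockout males, 3.32 and 5.11 FPKM in sponge females, 5.65 and 6.70 FPKM in wild type females, and 3.04 and 3.48 FPKM in wild type males. Both knockout libraries were above both wild type male libraries, and both sponge libraries were below both wild type female libraries. The knockout difference was 0.83 ± 0.25 (log2, SE; limma unadjusted p = 0.023, adjusted p = 0.792), and the sponge difference was -0.48 ± 0.24 (unadjusted p = 0.113). Wild type females exceeded wild type males by 0.75 ± 0.18 (unadjusted p = 0.0127, adjusted p = 0.707). The knockout difference minus the sponge difference was 1.31 ± 0.35 in a fit of all 8 libraries (limma unadjusted p = 0.00917, adjusted p = 0.840). In that fit 0 of the 37 genes were called, with a background of 0.0154%, and Ifitm3 was the 1 gene at an unadjusted p under 0.05, where the background was 4.98%. The manipulation and the sex of the mice cannot be told apart in that contrast. Ifitm2, its neighbour and near relative, followed no such order, with 4.74 and 1.51 FPKM in knockout males, against 2.76 and 5.12 FPKM in wild type males.

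Bst2, which encodes tetherin, a protein that holds budding virus on the cell, had 5.34 and 2.13 FPKM in knockout males, 2.40 and 1.36 FPKM in sponge females, 1.78 and 1.97 FPKM in wild type females, and 1.58 and 0.835 FPKM in wild type males. Both knockout libraries were above all 4 libraries of the wild type groups, with replicate 1 far above the rest. The difference from wild type males was 1.03 ± 0.41 (log2, SE; limma unadjusted p = 0.0596), and 0.53 without knockout replicate 1. Ifi27 had 11.3 and 9.68 FPKM in knockout males, against 7.69 and 8.94 FPKM in wild type males (0.30 ± 0.20). Oasl2, a relative of the oligoadenylate synthetases, had 0.912 and 1.21 FPKM in knockout males, against 0.714 and 0.711 FPKM in wild type males (0.26 ± 0.19). Usp18, which removes ISG15 from proteins and dampens the type I receptor, had 0.765 and 0.792 FPKM in sponge females, against 0.473 and 0.469 FPKM in wild type females (0.27 ± 0.15). Ifit2, a relative of Ifit1 and Ifit3 in the same cluster on chromosome 19, had 2.93 and 0.566 FPKM in knockout males, 0.140 and 0.153 FPKM in sponge females, 0.203 and 1.302 FPKM in wild type females, and 0.0757 and 1.297 FPKM in wild type males. Its high and low libraries were not those of Ifit3 in either wild type group, and the knockout groups overlap (0.66 ± 0.60, log2, SE). Ifi35, an interferon-induced leucine zipper protein, ranged from 1.06 to 2.07 FPKM over the 8 libraries. Parp14, a mono-ADP-ribosyltransferase, ranged from 0.220 to 0.702 FPKM.

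**Figure D3:**
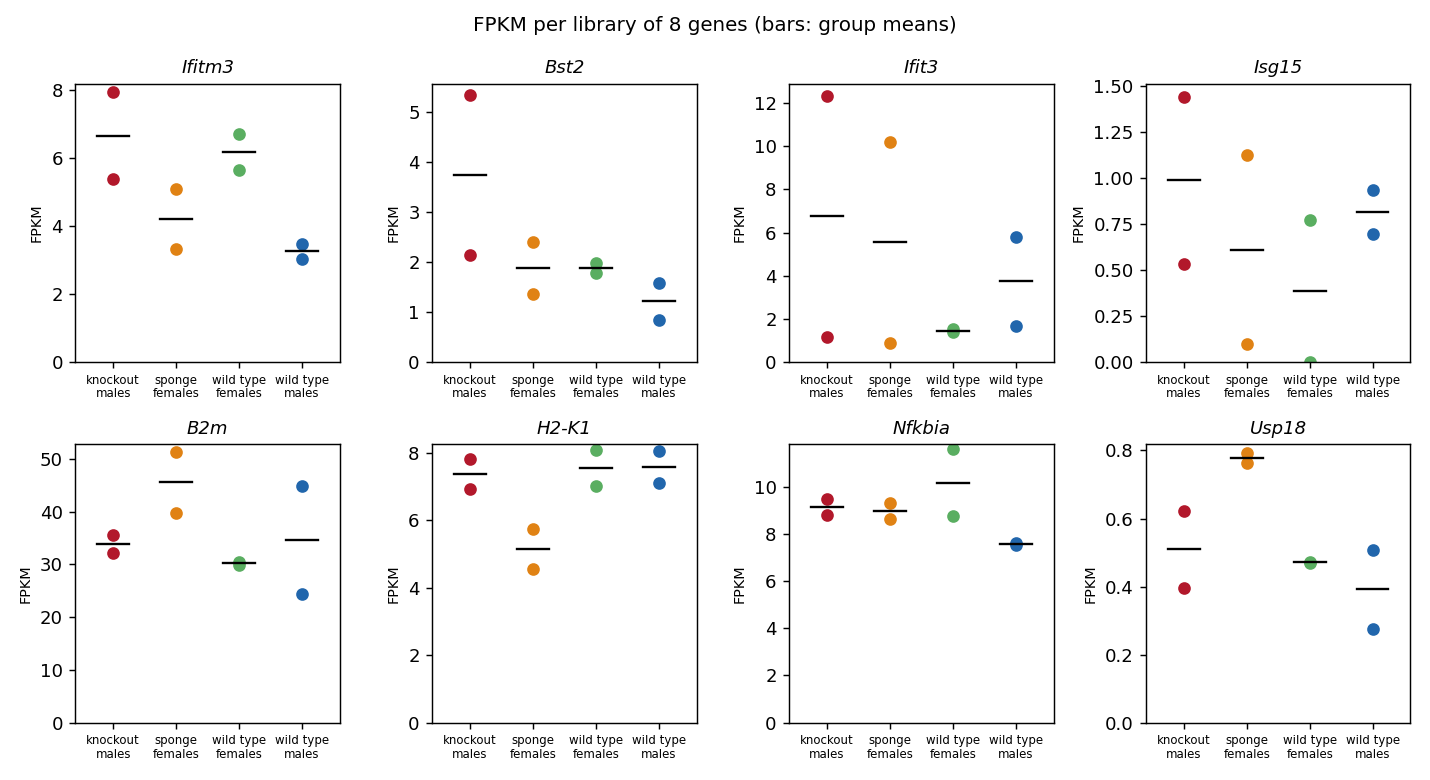
FPKM per library of 8 genes in the 4 groups (points are libraries, bars are group means, each axis starts at 0). Both knockout libraries lie above both wild type male libraries for Ifitm3, Bst2 and Nfkbia, while 1 library of each of 3 groups sets the mean of Ifit3.

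Ifit3, an antiviral tetratricopeptide-repeat protein, had the largest within-group SD of log2(FPKM + 1) among the 37 genes. It had 12.3 and 1.17 FPKM in knockout males, 10.2 and 0.898 FPKM in sponge females, 1.505 and 1.39 FPKM in wild type females, and 5.79 and 1.68 FPKM in wild type males. Replicate 1 was high in 3 groups and the second library of each was low, so the groups overlap in the knockout and sponge comparisons. The knockout difference was 0.33 ± 0.99 (log2, SE) and became -0.98 without knockout replicate 1. The sponge difference was 0.91 ± 0.91 and became -0.37 without sponge replicate 1. Ifit3b, a neighbouring near-identical copy added here after the values of Ifit3 were seen, had 5.37 and 4.71 FPKM in knockout males, 4.32 and 0.0162 FPKM in sponge females, 6.53 and 9.82 FPKM in wild type females, and 4.13 and 4.22 FPKM in wild type males. Ifit3 and Ifit3b together had 17.7 and 5.88 FPKM in knockout males, 14.5 and 0.914 FPKM in sponge females, 8.03 and 11.2 FPKM in wild type females, and 9.92 and 5.90 FPKM in wild type males. How reads were divided between the copies was not tested.

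The within-group SD of Ifit3, 1.38 on the log2(FPKM + 1) scale, was higher than that of 98.4% of the 13025 genes in the fit of 8 libraries. Its highest library was 13.7 times its lowest, where the ratio was 38.7 for Ifit2. Ifit2 followed in SD at 0.69, Ifitm2 at 0.60 and Isg15 at 0.51. Across the 37 genes the median within-group SD was 0.168, against 0.232 for all genes, and 14 of the 37 lay above that median. The 1 added to FPKM narrows this spread for low genes, and the set had a lower median level (2.56 FPKM) than all genes (4.94 FPKM). The 2 medians therefore do not show that the set varied less. Isg15, a ubiquitin-like protein induced by interferon, had 1.44 and 0.532 FPKM in knockout males, 1.12 and 0.0989 FPKM in sponge females, and 0.698 and 0.936 FPKM in wild type males. In wild type females it was listed at 0 in replicate 2 and at 0.773 FPKM in replicate 4.

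**Figure D4:**
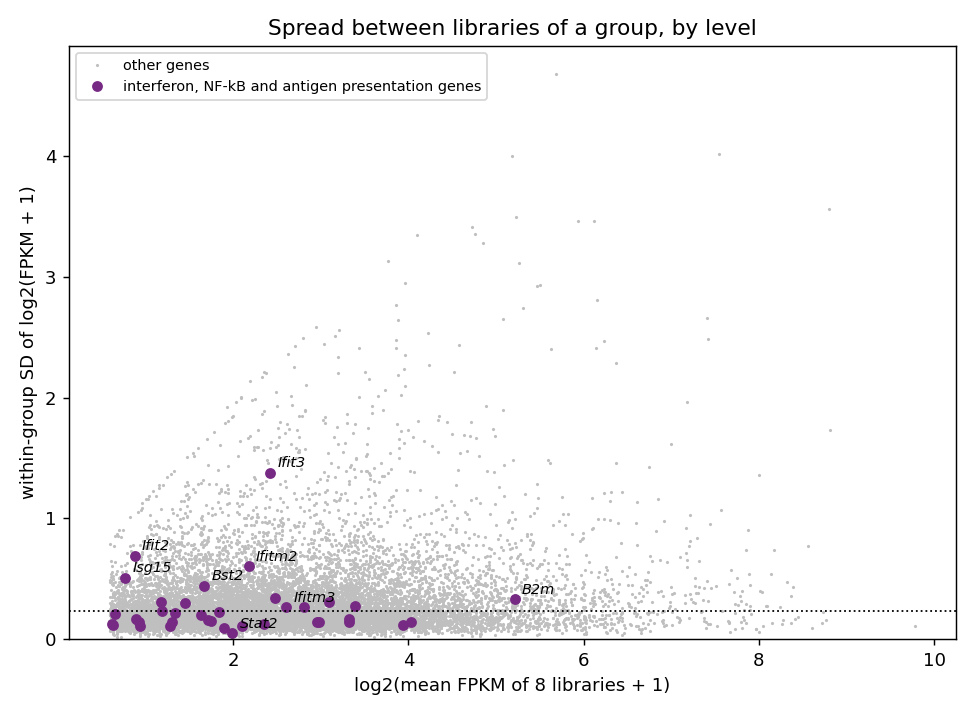
Within-group SD of log2(FPKM + 1), from the fit of 8 libraries, against the log2 mean level, for the genes of the set (purple) and all other genes (grey). The dotted line is the median of all genes, 0.232, and Ifit3 at 1.38 lies highest of the set.

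No NF-kB gene passed the test. The summed level of 4 NF-kB genes was 18.3 and 18.1 FPKM in knockout males, 18.0 and 18.3 FPKM in sponge females, 20.3 and 18.2 FPKM in wild type females, and 16.4 and 13.6 FPKM in wild type males. In knockout males 4 of 4 had a positive log2 fold change, with a median of 0.17, where 53.9% of all genes were positive with a median of 0.03. Of these, Ikbkb (0.02) and Nfkb1 (0.09) differed little. Nfkbia encodes the inhibitor I-kappa-B alpha, itself a target of NF-kB. It had 9.50 and 8.80 FPKM in knockout males, 8.62 and 9.30 FPKM in sponge females, 11.6 and 8.75 FPKM in wild type females, and 7.61 and 7.55 FPKM in wild type males. The wild type males were the lowest 2 libraries, and the knockout difference was 0.24 ± 0.18 (log2, SE; limma unadjusted p = 0.237). Rela, the p65 subunit, had 4.77 and 4.76 FPKM in knockout males, against 4.67 and 2.01 FPKM in wild type males, and wild type male replicate 2 was the lowest of the 8 libraries. Nfkb1, the p105 and p50 subunit, ranged from 2.40 to 2.98 FPKM, and Ikbkb, the IKK-beta kinase, from 1.24 to 1.64 FPKM.

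No cytokine receptor or adaptor gene passed the test. Tnfrsf1a, the main TNF receptor, had 2.09 and 1.59 FPKM in sponge females, against 0.689 and 1.52 FPKM in wild type females (0.46 ± 0.27, log2, SE; limma unadjusted p = 0.160). In the sex comparison it had 0.689 and 1.52 FPKM in wild type females, against 2.91 and 1.74 FPKM in wild type males (-0.67 ± 0.31, log2, SE; limma unadjusted p = 0.094). Myd88, the adaptor below interleukin-1 and Toll-like receptors, had 0.866 and 1.17 FPKM in wild type females, against 1.47 and 1.71 FPKM in wild type males (-0.36 ± 0.18). Il6st, which encodes gp130, the signalling chain shared by receptors of the interleukin-6 family, ranged from 11.6 to 15.7 FPKM over the 8 libraries. Il1r1, the interleukin-1 receptor, ranged from 0.334 to 0.856 FPKM.

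Markers of meninges and fibroblasts were high in some of the same libraries. The summed level of 9 meninges and fibroblast markers was 358 and 243 FPKM in knockout males, 251 and 76.9 FPKM in sponge females, 74.2 and 99.3 FPKM in wild type females, and 89.0 and 81.4 FPKM in wild type males. Ptgds made up most of this sum, and without it the other 8 markers summed to 31.5 and 21.3 FPKM in knockout males, 22.1 and 14.6 FPKM in sponge females, 10.7 and 8.67 FPKM in wild type females, and 8.40 and 12.8 FPKM in wild type males. All 4 knockout and sponge libraries then lay above all 4 wild type libraries. For sponge replicate 2 this order rests on Dcn, at 7.30 FPKM against 1.72 to 5.32 FPKM in the wild type libraries. None of the other markers in that sum was above all 4 wild type libraries in sponge replicate 2. Its Col1a2, at 0.879 FPKM, was the lowest of the 8 libraries. The 3 libraries highest in the full sum include replicate 1 of the knockout males and of the sponge females, the 2 highest in summed effectors, where the rank of sponge replicate 1 rests on Ifit3. Knockout replicate 2 had the third highest full marker sum and an effector sum within the wild type range. The part of meningeal tissue in the effector levels was not tested. The sum of 12 microglia markers was 220 and 157 FPKM in knockout males, 162 and 163 FPKM in sponge females, 201 and 168 FPKM in wild type females, and 262 and 165 FPKM in wild type males. Both sponge libraries lay below all 4 wild type libraries in this sum, though little below wild type male replicate 2. Knockout replicate 1 lay between the wild type male libraries and knockout replicate 2 was the lowest of the 8. For sponge replicate 1 the order rests on C1qa, at 8.67 FPKM against 29.7 FPKM in wild type female replicate 4. The median log2 fold change of the 12 markers in sponge females was -0.05, against -0.03 for all genes. Cx3cr1 was at 0 in sponge replicate 2 and both wild type female libraries, and at 0.0366 FPKM in wild type male replicate 2. The part of microglia in the levels of the set was not tested. The sum of 2 border macrophage markers, Mrc1 and Pf4, was 1.35 and 1.296 FPKM in knockout males, 0.955 and 1.31 FPKM in sponge females, 0.623 and 0.818 FPKM in wild type females, and 0.836 and 0.450 FPKM in wild type males. This sum was higher in all 4 knockout and sponge libraries than in any wild type library. In sponge females and in knockout replicate 2 the order came from Pf4. Mrc1 lay within its wild type range of 0.401 to 0.637 FPKM there (0.428 and 0.575 FPKM in sponge females, 0.601 FPKM in knockout replicate 2). Both markers were under 1 FPKM in every library. The other 3 markers of that list, Cd163, Lyve1 and Cbr2, had no row common to the gene tables. The sum of 3 choroid plexus markers was 17.9 and 12.9 FPKM in knockout males, 17.8 and 45.4 FPKM in sponge females, 528.9 and 18.7 FPKM in wild type females, and 8.35 and 20.9 FPKM in wild type males, and wild type female replicate 2 stands apart. The part of either cell type in the levels of the set was not tested. None of the 9 lymphocyte and granulocyte markers had a row in the gene tables. Pomc and Agrp, which mark the arcuate nucleus, were present in all 8 libraries, at 12.4 to 90.4 FPKM and 14.6 to 28.3 FPKM. Gja1, an astrocyte gap junction gene, had 0.0635 FPKM in knockout replicate 1 and 0.0231 FPKM in sponge replicate 2, against 49.4 to 63.6 FPKM in the other 6 libraries. In these 2 libraries the astrocyte markers Slc1a3 (79.4 and 73.4 FPKM) and Gfap (31.5 and 33.7 FPKM) lay within the range of the other 6. Aldh1l1, a further astrocyte marker, was lowest in these 2 libraries, yet had 11.6 FPKM or more in each. Cldn5, an endothelial marker, was listed at 0 in knockout replicate 1 alone. The cause of the low Gja1 values was not tested.

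**Figure D5:**
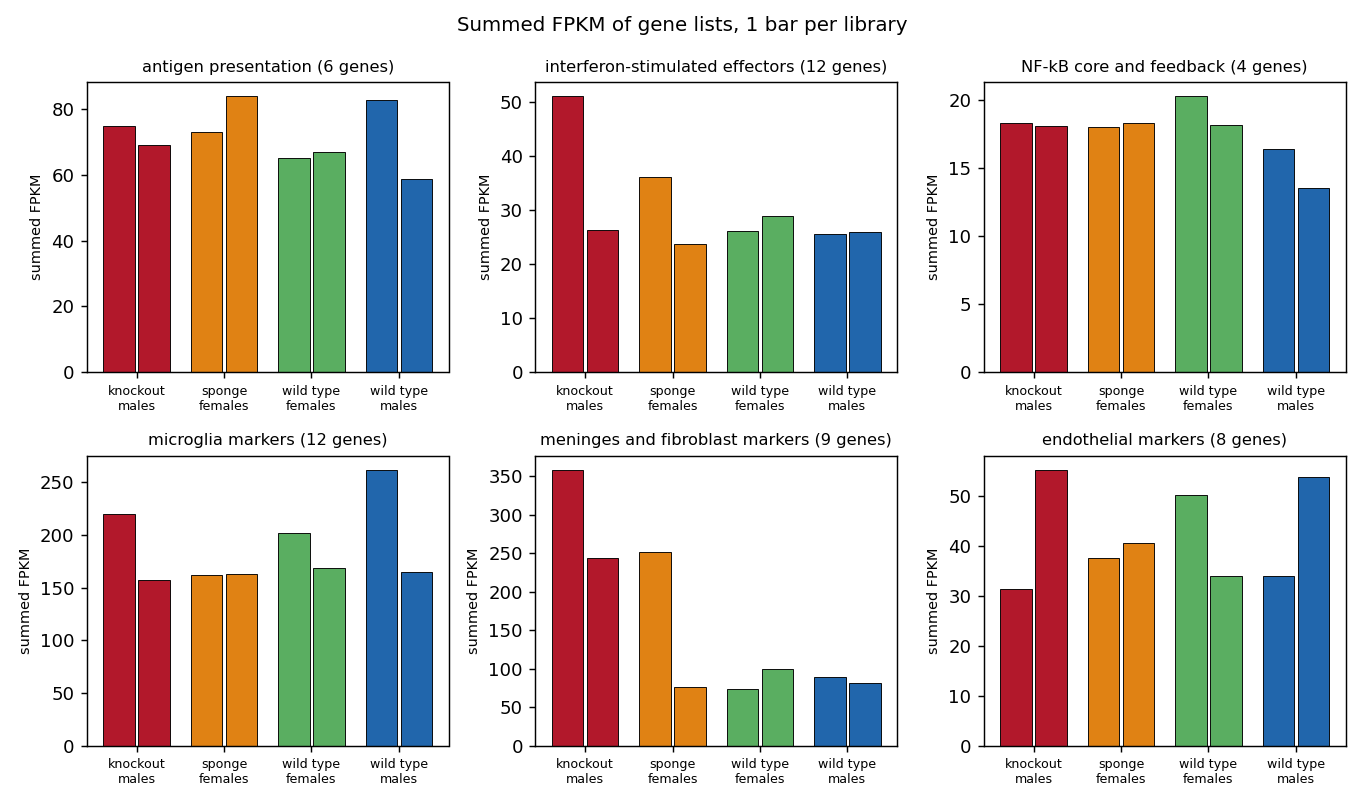
Summed FPKM of 3 groups of genes of the set and 3 lists of cell type markers, 1 bar per library, with axes starting at 0. The effector sum is highest in knockout replicate 1 (51.0 FPKM) and sponge replicate 1 (36.1 FPKM, or 25.9 FPKM without Ifit3), and the meninges and fibroblast sum, most of it Ptgds, is high in both knockout libraries and in sponge replicate 1.

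No transcript of these genes passed the test. Of 49 tested transcripts of these genes in each comparison, 0 were called in knockout males (background 0.00904% of transcripts), 0 in sponge females (background 0.0%) and 0 in the sex comparison (background 0.0%). At an unadjusted p under 0.05 there was 1 transcript in the knockout comparison, 0 in the sponge comparison and 3 in the sex comparison, where the background was 5.83%, 4.52% and 5.77% of all transcripts in the knockout, sponge and sex comparisons. H2-K1-010 had 0 and 0.385 FPKM in knockout males, against 1.35 and 2.74 FPKM in wild type males (limma unadjusted p = 0.0359), while both libraries of wild type females listed it at 0. H2-K1-003 had 2.86 and 2.68 FPKM in wild type females, against 0.0296 and 0 FPKM in wild type males (unadjusted p = 0.00363, adjusted p = 0.542), and 0 and 2.74 FPKM in knockout males. The main transcript H2-K1-001 had 9.73 and 9.45 FPKM in knockout males, against 12.2 and 8.78 FPKM in wild type males.

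Promoters of the set were searched for 3 motifs in RefSeq sequence of build GRCm38.p6, from 250 bases before to 50 after the gene start, on both strands, for the 33 genes with an entry. The core of the interferon-stimulated response element (ISRE), GAAANNGAA, was found in 39.4% of them, against 9.76% of all 27025 promoters. The gamma-activated site (GAS) TTCNNNGAA was in 27.3%, against 9.55% of all, and the NF-kB motif (kB) GGANTTTCC in 18.2%, against 1.45% of all. An ISRE core was present in 6 of 9 effectors with an entry. It was also in all 3 genes with an entry among the RNA sensors and their ligase (Ddx58, Ifih1 and Trim25). The windows below, given 5′ to 3′ in gene orientation with build GRCm38.p6 coordinates and motif matches on either strand in capitals, are shown because they belong to effectors, the light chain and the transcription factor Irf1 described above.
Ifit1 ISRE core (chr19:34640765-34640828, plus strand): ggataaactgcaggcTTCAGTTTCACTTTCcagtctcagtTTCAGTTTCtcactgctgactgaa
Ifit3 ISRE core (chr19:34583359-34583450, plus strand): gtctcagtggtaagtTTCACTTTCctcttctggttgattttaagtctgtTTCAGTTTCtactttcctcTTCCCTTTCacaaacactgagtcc
Isg15 ISRE core (chr4:156200861-156200911, minus strand): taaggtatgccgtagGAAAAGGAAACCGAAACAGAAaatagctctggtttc
Bst2 ISRE core (chr8:71537573-71537617, minus strand): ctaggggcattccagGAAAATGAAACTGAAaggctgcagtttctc
B2m ISRE core (chr2:122147533-122147571, plus strand): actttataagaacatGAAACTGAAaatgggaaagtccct
Irf1 GAS (chr11:53769909-53769947, plus strand): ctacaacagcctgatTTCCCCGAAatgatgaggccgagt
B2m kB (chr2:122147546-122147584, plus strand): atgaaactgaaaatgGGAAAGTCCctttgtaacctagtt
The Ifit3 window holds 3 matches, from 155 to 94 bases before the start, the Isg15 window 3 overlapping ones from 78 to 58 bases and the Bst2 window 2 overlapping ones from 130 to 116 bases. Ifit1 and Ifit3 share this kind of promoter. Ifit1 had 2.08 and 1.18 FPKM in knockout males, 1.05 and 1.13 FPKM in sponge females, 1.12 and 1.82 FPKM in wild type females, and 1.23 and 0.498 FPKM in wild type males. Its replicate 1 was the higher library in knockout and wild type males, as for Ifit3, but not in sponge females. Among the 12 effectors, Bst2 and Ifit3 (16.7%) were higher in replicate 1 of all 3 of these groups, against 10.48% of all genes. Usp18 (8.33%) was lower in replicate 1 of all 3, against 15.22% of all genes.

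Seed matches to the manipulated microRNAs were counted in the 3' UTRs of these genes. The mature sequences, from RefSeq with the seed (bases 2 to 8) in capitals, are given because the seeds define the matches counted.
miR-7a-5p: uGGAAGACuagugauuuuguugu
miR-17-5p: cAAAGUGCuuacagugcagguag
miR-18a-5p: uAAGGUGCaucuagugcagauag
miR-19a-3p: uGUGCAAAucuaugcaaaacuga
miR-92a-3p: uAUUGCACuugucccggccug
A match to the miR-7 seed in the longest annotated 3' UTR (GENCODE M21) was found for 6 of 35 genes, or 17.1%, against 14.2% of all genes. Those were Irf3, Irf1, Rela, Parp14, Bst2 and H2-K1. Their median log2 fold change in sponge females was -0.05, against -0.04 for all genes with a match and -0.03 for all genes without one. A match to the miR-17 seed was found for 5 of 35 genes, or 14.3%, against 15% of all genes, and these were Irf9, Il6st, Ikbkb, Ifit1 and Ifit3. Their median log2 fold change in knockout males was 0.17, against 0.04 for all genes with a match and 0.03 for all genes without one. Matches to miR-18a were in 2 genes, or 5.71%, against 9.42% of all genes. Matches to miR-19 were in 4, or 11.4%, against 14% of all, and matches to miR-92a in 2, or 5.71%, against 8.02% of all.

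Other genes of the same pathways, 98 in all, gave 0 called genes of 72 tested in knockout males, 0 of 71 in sponge females and 0 of 69 in the sex comparison by limma. At an unadjusted p under 0.05 there were 1 higher and 0 lower in knockout males, 2 higher and 2 lower in sponge females, and 1 higher and 1 lower in wild type females. The background at that threshold was 5.33% of all genes in the knockout comparison, 3.76% in the sponge comparison and 4.61% in the sex comparison. Gbp2, an interferon-induced GTPase, had 2.45 and 3.27 FPKM in knockout males, against 1.52 and 1.24 FPKM in wild type males (0.69 ± 0.21, log2, SE; limma unadjusted p = 0.0268, adjusted p = 0.792). Lgals3bp, a secreted glycoprotein, had 3.62 and 2.66 FPKM in sponge females, against 5.74 and 7.89 FPKM in wild type females (-0.91 ± 0.23; unadjusted p = 0.0165, adjusted p = 0.924). Jak2, a kinase bound to the type II interferon receptor, had 10.1 and 9.51 FPKM in wild type females, against 6.54 and 7.19 FPKM in wild type males (0.46 ± 0.16; unadjusted p = 0.0443, adjusted p = 0.920). In knockout males Jak2 had 9.51 and 9.52 FPKM (0.42 ± 0.18; limma unadjusted p = 0.0711). Nfkbib was lower in knockout males (-0.62 ± 0.27; limma unadjusted p = 0.0715). In sponge females Gbp3 was lower (-0.35 ± 0.16; limma unadjusted p = 0.0911) and Cmpk2 higher (0.60 ± 0.30; limma unadjusted p = 0.114). Cd74 and Tmem173 (higher) and H2-Eb1 (lower) were the other sponge genes at a limma unadjusted p under 0.05. Their means there were under the 1 FPKM set for describing a gene. H2-Aa and Cd74, class II genes of antigen-presenting cells, did not pass the test in the sex comparison (limma adjusted p = 0.920 for both). H2-Aa had 0.256 and 0.142 FPKM in wild type females, against 2.79 and 0.884 FPKM in wild type males (unadjusted p = 0.0372). Cd74 had 0.598 and 0.665 FPKM in wild type females, against 10.2 and 1.51 FPKM in wild type males (unadjusted p = 0.0855). For both genes wild type male replicate 1 was the highest of the 4.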

How the data were processed

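The authors deposited FPKM per gene and transcript for 8 libraries, computed with StringTie and Ballgown per the labels' series design text. They also deposited log2 means, fold changes and p-values of their own per comparison, which were not used. Poly(A) RNA gave stranded dUTP libraries, read for 150 cycles at each end, per the labels' protocols. The submitters' processing notes name HISAT2 2.0.4, StringTie 1.2.3, cutadapt and FastQC, and the builds mm10 and GRCm38. Their strand and multi-mapping settings are not given in the sources used here. Depth is unknown, since FPKM values hold no read totals. The sum of FPKM over the listed genes was 141666 to 152741 per library.

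From the deposited FPKM, log2(FPKM + 1) was fitted with limma 3.58.1 (empirical Bayes, mean-variance trend, two-sided) in R 4.3.3, over the 4 libraries of each comparison, for genes with a mean of at least 0.5 FPKM. p-values were adjusted over all genes. A log2 fold change on this scale understates the change of low genes. The sources do not say that the pools of a group came from separate litters, so p-values reflect only how these libraries differ, which may be technical. The fit was tested on simulated data. All 41 members were described. Other pathway genes were chosen for description by smallest unadjusted p, up to 3 per comparison, with a mean of at least 1 FPKM. Members, lists and tests were chosen with earlier results of these data known. Seed matches were counted after the data had been seen. Alternatives tried were other pseudocounts, filters, scalings, a replicate block, a shared fit, limma without the trend and leaving out each library.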

Additional observations from a re-analysis of the deposited data

How the results depend on the processing

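The count of called genes of the set was 0 in each comparison, in the difference of effects and for transcripts under every alternative run. The smallest adjusted p of any of these genes under any alternative was 0.587 in the knockout comparison (Ifitm3), 0.329 in the sponge comparison (Ifit3), 0.404 in the sex comparison (Ifit3) and 0.555 for the difference (Ifitm3), each with 1 library left out. The direction held under all alternatives for 18 of 35 genes in the knockout comparison, 18 of 35 in the sponge comparison and 16 of 35 in the sex comparison. The median log2 fold change moved by less than the spread between replicates. With 1 library left out it was 0.03 (without wild type male replicate 2, where all genes had 0.05) to 0.14 (without knockout replicate 2) in the knockout comparison and 0.0099 (without wild type male replicate 1) to 0.11 (without wild type female replicate 4) in the sex comparison, and in the sponge comparison its sign turned to 0.01 without sponge replicate 2 and to 0.0023 scaled to a common total.

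Over all genes, the knockout comparison called 8 genes, 2 with a pseudocount of 0.1, 3 with a mean of at least 2 FPKM, 0 after quantile normalization and 0 with a replicate block. The sponge comparison called 14 genes, and 2 in the fit of 8 libraries. The sex comparison called 9 genes, and 3 in the fit of 8 libraries. Leaving out 1 library gave 0 to 0 called genes in each comparison, where 1 group then has 1 library, assumed to vary like the other. The cause was not tested. The replicate block paired knockout and wild type males by number. Over genes the differences between their replicates correlated at -0.000572, so no shared replicate pattern showed across all genes. This value cannot tell whether the libraries were paired in a way that touches few genes. No paired analysis was possible because the groups share fewer than 2 replicate numbers in the sponge and sex comparisons. Read depth, which limits the precision of the lowest genes, is unknown.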
